A study of Rattus norvegicus with 12 samples.

Results

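The 8 genes described here, Slc5a11, Doc2a, Tekt5l1, Gca, Ces2c, Aspa, Slc4a8 and B3galnt1, were chosen because their signal in liver was far higher after dexamethasone than after vehicle on these same arrays, and they are 8 of 24295 measured genes. They are represented by 9 probes, 2 of them for B3galnt1. The size of their difference after dexamethasone was the criterion of choice, so it is given as a description with no test, and tests on the 8 genes are limited to differences between females and males. Adult Sprague-Dawley rats were used, all adrenalectomized and aged 8 to 10 weeks, so that every group, vehicle groups included, lacked the adrenal source of corticosterone. The groups were females in diestrus given dexamethasone at 1 mg/kg by intraperitoneal injection, females in diestrus given phosphate-buffered saline as vehicle, males given the same dose of dexamethasone, and males given vehicle. Liver was taken after 6 h, and total RNA was labelled with Cy3 for single-colour 60-base oligonucleotide arrays. Each group had 3 arrays, each array held the pooled RNA of 3 animals, and 9 animals contributed to a group. The question of the series is where the liver's response to glucocorticoids differs between females and males.

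Dexamethasone is a synthetic glucocorticoid. Glucocorticoids enter the cell, bind the glucocorticoid receptor (encoded by Nr3c1) and release it from its Hsp90 chaperone complex into the nucleus, where it binds DNA at palindromic response elements or through other factors and raises or lowers transcription. In liver this receptor is best known for inducing genes of gluconeogenesis and amino acid breakdown. Most of the 8 genes are better known elsewhere: Slc5a11 as an inositol transporter of kidney and intestine, Doc2a and Slc4a8 from neurons, tektins from cilia and sperm tails, Gca from neutrophils and Aspa from oligodendrocytes and kidney. Ces2c, a carboxylesterase, is a liver enzyme, and B3galnt1 makes a glycolipid of red cells and kidney.

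The probes and the promoters identify what was measured. The array design names Tekt5l1 as RGD1565057, Ces2c as Ces2 and B3galnt1 as B3galt3, and these probes were matched to current genes by accession. The 60-base probes of 3 genes are printed because their names on the array differ from the names used here; they are in lower case throughout, since no stretch of a probe is singled out.
Tekt5l1 probe: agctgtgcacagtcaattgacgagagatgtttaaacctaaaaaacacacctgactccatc
Ces2c probe: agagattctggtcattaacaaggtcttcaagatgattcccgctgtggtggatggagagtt
B3galnt1 dimmer probe: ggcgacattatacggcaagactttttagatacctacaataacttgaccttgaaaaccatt

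Promoter windows, the 250 bases before a transcript start, came from RefSeq (build GRCr8), which gave windows for Tekt5l1, Gca, Ces2c, Aspa, Slc4a8 and B3galnt1, 6 of the 8 genes. Tekt5l1 lies head to head with Cdc37l1: the minus-strand starts of Tekt5l1 lie 37 and 136 bases from the plus-strand start of Cdc37l1, so the window of Cdc37l1 shares 135 of its 250 bases with that of the farther Tekt5l1 start and 0 with the other. The window of Cdc37l1 is printed whole because both genes are described below, with the shared bases at its 3′ end, and the windows of Gca and Aspa are printed because Ifih1, the neighbour of Gca, is also described and because the window of Aspa holds TATAAA. Capitals mark TGTTCT (or AGAACA, its other strand), the core hexamer of the glucocorticoid response element, and TATAAA (or TTTATA).
Cdc37l1 promoter, chr1:236118380-236118629, plus strand: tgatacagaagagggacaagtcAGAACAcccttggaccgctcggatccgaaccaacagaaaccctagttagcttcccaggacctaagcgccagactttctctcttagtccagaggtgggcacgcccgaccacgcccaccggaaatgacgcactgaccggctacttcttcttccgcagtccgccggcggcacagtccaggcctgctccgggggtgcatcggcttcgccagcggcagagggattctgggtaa
Gca promoter, chr3:67705640-67705889, plus strand: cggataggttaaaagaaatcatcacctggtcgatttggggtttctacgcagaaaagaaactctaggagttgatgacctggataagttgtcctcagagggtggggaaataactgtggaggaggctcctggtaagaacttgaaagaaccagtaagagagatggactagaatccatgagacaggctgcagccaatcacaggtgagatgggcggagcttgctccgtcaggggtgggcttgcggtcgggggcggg
Aspa promoter, chr10:58439038-58439287, minus strand: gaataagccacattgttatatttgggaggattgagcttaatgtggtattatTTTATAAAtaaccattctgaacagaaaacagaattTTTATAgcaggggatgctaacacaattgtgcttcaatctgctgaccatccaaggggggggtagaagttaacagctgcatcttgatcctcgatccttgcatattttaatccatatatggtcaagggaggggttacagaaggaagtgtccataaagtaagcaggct

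The palindrome of GNACA and TGTNC with 3 bases of any kind between them, searched on either strand with any overlap allowed, was found in 0 of the 7 windows of these 6 genes and in 0.373% of all 33469 windows. The hexamer TGTTCT was found in 0 of 7 windows, against 17.5% of all windows. TATAAA was found in 1 of the 6 genes, Aspa, and in 12.9% of all windows. The hexamer in capitals in the window of Cdc37l1 lies outside the shared bases and outside both windows of Tekt5l1. These counts describe letters in windows of 250 bases and nothing farther from the start.

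Signals are given as a percentage of the 75th percentile of the spots of the same array, which places arrays of different brightness on one scale, and differences are on the log2 scale of that ratio. Between 53.0% and 69.7% of spots per array were well above background. Slide 5 carried replicate 3 of each group and was the dimmest, with 53.0% to 61.8% of spots above background, and it was the only slide with all 4 groups. Female dexamethasone arrays 1 and 2 were alone on slide 4, scanned on a day of its own, and female vehicle arrays 1 and 2 were on slide 2. Outside slide 5, the slide therefore cannot be told apart from the female difference after dexamethasone. The same holds for the difference between the sexes after dexamethasone. Of 5 genes known to respond to glucocorticoids, 4 rose and Nr3c1 fell in either sex (limma, Benjamini-Hochberg adjusted p under 0.05 over all 24295 genes). Fkbp5, an immunophilin of the receptor complex, rose by 4.54 in females (adjusted p = 3.74e-06) and by 4.17 in males (adjusted p = 3.08e-06), and Tsc22d3, Per1 and Tat rose by 1.98 to 3.20 in log2. The hepatocyte markers were all measured (8 of 8). Liver is a mixture of cells, so in these bulk samples fewer cells of a type and less RNA per cell cannot be told apart. The p-values set a difference between groups against the variation among arrays of pooled RNA within groups.

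Ordered by the log2 difference between dexamethasone and vehicle among the 12074 measured genes with a symbol, the 8 genes lay between rank 1 and rank 16 in females and between rank 1 and rank 10 in males. Over all 24295 measured genes they lay between rank 1 and rank 23 in females and between rank 3 and rank 17 in males. In females Gca was the lowest of the 8 at 4.80, with Slc13a5 (4.75) and Arg2 (4.74) just below it. Just inside the range in males were B3galnt1 at 5.29 and Slc4a8 at 5.58. Just outside the range in males were Rorb at 5.19, an orphan nuclear receptor, and Cdkn1a at 5.02, a cell cycle inhibitor. Gucy2c (6.19), a guanylyl cyclase receptor, and Arg2 (5.35), the mitochondrial arginase, lay among them in males and are not included. In females Gucy2c (6.25), Cdkn1a (5.19) and further genes lay among them and are not included either. All dexamethasone arrays of both sexes lay above all vehicle arrays for 8 of 8 genes, which the choice of the genes sets, and for 9.36% of all measured genes.

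**Figure D1:**
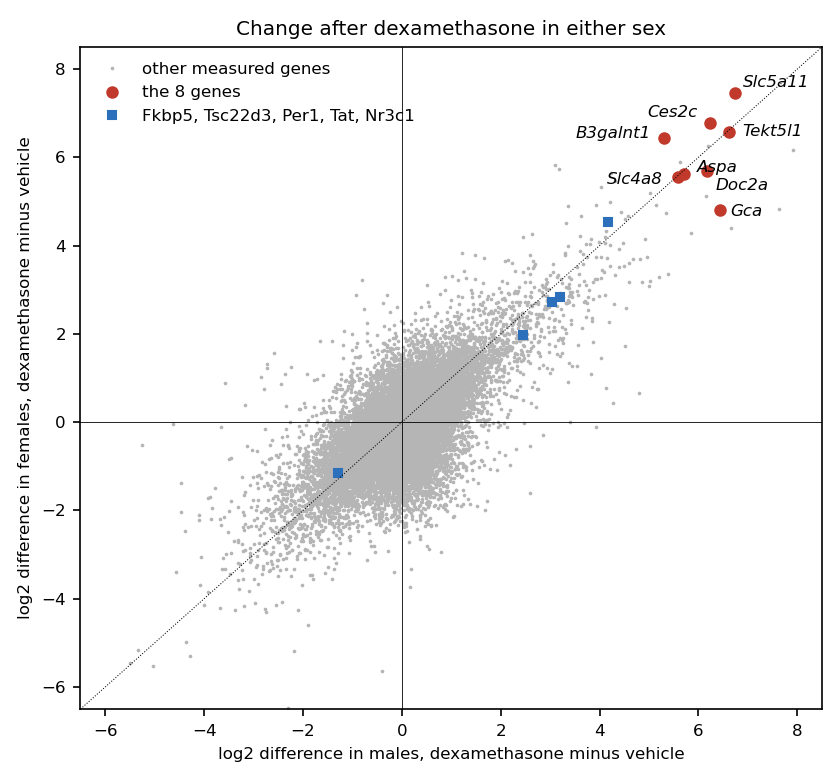
Log2 difference between dexamethasone and vehicle in females (vertical axis) and in males (horizontal axis) for every measured gene (grey), the 8 genes (red) and 5 known glucocorticoid-responsive genes (blue); the dotted line marks equal differences. The 8 genes sit between 4.80 and 7.46 in females and between 5.29 and 6.74 in males.

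Slc5a11 encodes a sodium-coupled transporter of myo-inositol, the sugar alcohol from which phosphoinositides are made. Its signal was 356%, 304% and 395% on the female dexamethasone arrays, against 1.26%, 2.15% and 2.92% on the female vehicle arrays. Every vehicle array was below background and every dexamethasone array above it. In males the signal was 304%, 260.5% and 211% on the male dexamethasone arrays, against 1.37%, 1.91% and 5.28% on the male vehicle arrays. The groups were again fully apart, and male vehicle array 3 was the highest vehicle array but below background too. The measured log2 difference was 7.46 ± 0.46 in females and 6.74 ± 0.46 in males (± SE, 3 arrays a group). Because a vehicle mean below background is only a limit, the signal after dexamethasone was at least 60.5-fold higher in females and at least 63.9-fold higher in males. These limits set the dexamethasone mean against the dimmest signal that counted as well above background on each vehicle array, or against the gene's own value where that was brighter.

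Of 10 other measured genes of inositol handling, 1 rose and 1 fell in females, and 1 rose and 1 fell in males, with a median log2 difference of 0.23 in females and 0.21 in males. Over all 24295 genes, 11.7% were called higher and 12.6% lower in females, and 9.34% higher and 10.8% lower in males (limma), and the median difference was -0.08 in females and 0.01 in males. Slc5a3, the other sodium-coupled myo-inositol transporter, gave 0.51 in females (adjusted p = 0.439) and rose in males (1.96 ± 0.45, adjusted p = 0.0111). Inpp1, which removes a phosphate from inositol bisphosphate, fell in both sexes (-0.96 in females, adjusted p = 0.0101, and -0.77 in males, adjusted p = 0.0314). Isyna1, which makes inositol from glucose 6-phosphate, rose in females (0.74, adjusted p = 0.0224). The male call of Inpp1 was lost without male vehicle array 1 or 2 or male dexamethasone array 2 or 3 (adjusted p up to 0.112), and the call of Isyna1 without any single female vehicle array or female dexamethasone array 1 or 2 (up to 0.0843). With the slide or the scan day as a block the female call of Inpp1 was lost as well (0.106 and 0.0641), and with normexp background correction that of Isyna1 (0.0513).

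Slc4a8 encodes an electroneutral sodium-driven chloride bicarbonate exchanger, which moves bicarbonate into cells. Its signal was 329%, 270.2% and 262% on the female dexamethasone arrays, against 6.95%, 5.88% and 5.58% on the female vehicle arrays. Female vehicle array 1 was above background and the other two were not. In males the signal was 262%, 349% and 299% on the male dexamethasone arrays, against 6.45%, 5.17% and 7.49% on the male vehicle arrays. All male vehicle arrays were above background, and their highest value lay far below the lowest dexamethasone value. The log2 difference was 5.55 ± 0.19 in females and 5.58 ± 0.19 in males, a 47.8-fold difference in males. In females the vehicle mean rests on 1 array above background and the others below it, so no fold is given. Slc4a8 had the smallest spread of the 8 genes, with an SE of 0.19 against 0.36 to 0.56 for the others.

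Among 16 other measured genes of bicarbonate and carbonic acid handling, 2 rose and 2 fell in females, and 1 rose and 2 fell in males, with medians of 0.01 in females and -0.27 in males. Car12, a membrane-bound carbonic anhydrase, was below background on all vehicle arrays and above it on all dexamethasone arrays. It was at least 7.51-fold higher in females (adjusted p = 1.89e-05) and at least 4.53-fold higher in males (adjusted p = 8.07e-05). Over the alternative fits its log2 difference fell to 1.25 in females and 0.80 in males, smaller than these limits, and both calls held. The sodium bicarbonate cotransporter Slc4a4 fell in both sexes (-1.41 in females, adjusted p = 0.00863, and -1.39 in males, adjusted p = 0.0102). Car8, a carbonic anhydrase relative without enzyme activity, also fell (-1.15 in females, adjusted p = 0.00937, and -1.26 in males, adjusted p = 0.00617). The sulfate transporter Slc26a1 rose in females (0.55, adjusted p = 0.0295), a call lost without female vehicle array 1 or 2 or female dexamethasone array 1 or 2 (up to 0.107). With the slide as a block in the model, the female calls of Slc4a4, Car8 and Slc26a1 were lost (adjusted p = 0.0613, 0.348 and 0.507).

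Both calcium-binding proteins among the 8 genes were below background in vehicle-treated rats of either sex. Doc2a has a pair of C2 domains that bind calcium and membranes, and acts in neurotransmitter release. Its signal was 192%, 198% and 83.5% on the female dexamethasone arrays, against 2.09%, 5.46% and 2.05% on the female vehicle arrays. In males the signal was 326%, 326% and 123% on the male dexamethasone arrays, against 2.81%, 2.14% and 5.85% on the male vehicle arrays. Replicate 3 was the lowest dexamethasone array in both sexes, by a wide margin, and still stood far above every vehicle array. The log2 difference was 5.68 ± 0.56 in females and 6.17 ± 0.56 in males, and the signal was at least 25.4-fold higher in females and at least 58.9-fold higher in males. Within slide 5 the difference of Doc2a was 5.35 in females and 4.39 in males, and within slide 1, the other slide with both male treatments, it was 7.25.

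Of 18 other measured genes of calcium-triggered vesicle release, 2 rose and 6 fell in females, and 1 rose and 5 fell in males, with medians of -0.64 in females and -0.24 in males. Rph3al, a Rab effector of exocytosis, fell in both sexes (-1.05 in females, adjusted p = 0.00134, and -1.21 in males, adjusted p = 0.000596). Sytl2, a synaptotagmin-like Rab27 effector, fell by 1.76 in females (adjusted p = 0.00726) and by 1.58 in males (adjusted p = 0.0137), and the male call was lost without male vehicle array 1 (adjusted p = 0.0509). Syt12, a synaptotagmin, fell in females (-2.03, adjusted p = 0.00896), a call lost with the slide or the scan day as a block (0.0953 and 0.133). In males it was above background on 1 of 6 arrays, and its male call (-1.57, adjusted p = 0.0329) was lost without male vehicle array 2 or 3 or male dexamethasone array 1 or 2 (up to 0.116) and with normexp background correction (0.833). Snap23, a SNARE protein of many tissues, rose by 1.12 in males (adjusted p = 0.0102), a call lost without the arrays of slide 5 (0.0565). Its female call (0.86, adjusted p = 0.0304) was lost without any single female vehicle array or female dexamethasone array 1 or 2 (up to 0.111), and with the slide as a block (0.725).

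Gca encodes grancalcin, a penta-EF-hand calcium-binding protein first described in neutrophils. In females its signal was 51.7%, 50.6% and 28.9% on the female dexamethasone arrays, against 1.17%, 1.32% and 2.25% on the female vehicle arrays. The male arrays gave 114%, 77.2% and 97.9% on the male dexamethasone arrays, against 1.38%, 0.639% and 1.53% on the male vehicle arrays. All vehicle arrays were below background, and all 3 female dexamethasone arrays lay below all 3 male ones. The log2 difference was 4.80 ± 0.38 in females and 6.43 ± 0.38 in males, so the signal was at least 7.31-fold higher in females and at least 23.8-fold higher in males. The neutrophil genes S100a8 and S100a9, which encode the subunits of calprotectin, fell after dexamethasone (-3.21 and -2.96 in females, adjusted p = 0.00395 and 0.00171, and -2.64 and -2.75 in males, adjusted p = 0.0120 and 0.00274). S100a8 was above background on 1 of 3 dexamethasone arrays in each sex, and S100a9 on 2 of 3 in females and 0 of 3 in males. The sizes of these falls are therefore measured values and not calibrated ones. The calls of S100a8 were lost with the slide as a block (0.122 in females and 0.0974 in males), and the male calls of S100a8 and S100a9 with normexp (0.0891 and 0.133). Of 8 listed neutrophil markers 4 were measured, and Mpo, Elane, Camp and Ngp were not measured above the filter. S100a8 and S100a9 fell in each sex, and the other measured markers, Csf3r and Lcn2, were called in neither. The summed signal of the 4 measured markers was 67.2% to 106% of the 75th percentile on female dexamethasone arrays, against 121% to 478% on female vehicle arrays. In males it was 75.2% to 149% on dexamethasone arrays, a range that encloses the 89.2% to 134% on vehicle arrays. The part of neutrophils in the level of Gca was not tested.

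The penta-EF-hand list also holds Cast, Lcp1, Capn5 and Capn10, which are not penta-EF-hand proteins. Besides Gca, 10 genes of the list were measured, among them calpains and their small subunit. Of these, 2 rose and 0 fell in females (limma, 2 lower at an unadjusted p under 0.05), and 2 rose and 2 fell in males, with medians of 0.10 in females and -0.11 in males. Capn10, a calpain protease gene linked to diabetes risk in humans, rose in females (2.64 ± 0.21, adjusted p = 2.40e-05) and in males (2.17 ± 0.21, adjusted p = 7.08e-05). Capn8, a calpain best known from stomach, was below background on all 6 female arrays and at least 6.67-fold higher after dexamethasone in males (adjusted p = 2.29e-05). Over the alternative fits its log2 difference in males fell to 1.02, smaller than this limit, and the male call held. Lcp1, an actin-bundling protein of leukocytes, fell in males (-1.60, adjusted p = 0.00146), where 1 of 3 dexamethasone arrays was above background, and the call was lost with normexp background correction (-0.32, adjusted p = 0.153). Capns1, the calpain small subunit, also fell in males (-0.64, adjusted p = 0.0404), a call that was lost without any single array other than male vehicle array 1 and female vehicle array 3 (adjusted p up to 0.137).

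Tekt5l1 is named as a tektin 5-like gene, and tektins are filament proteins of the microtubule doublets of cilia and flagella. Its signal was 172%, 155% and 125% on the female dexamethasone arrays, against 1.28%, 1.38% and 2.20% on the female vehicle arrays. Males had 205%, 196% and 139.7% on the male dexamethasone arrays, against 1.25%, 1.36% and 3.44% on the male vehicle arrays. No vehicle array was above background, and the dexamethasone arrays of the sexes overlapped. The log2 difference was 6.57 ± 0.37 in females and 6.62 ± 0.37 in males, and the signal was at least 25.8-fold higher in females and at least 44.4-fold higher in males. Foxj1, the transcription factor that switches on motile cilia genes, rose as well (2.23 in females, adjusted p = 0.000503, and 2.05 in males, adjusted p = 0.000846). Of 6 listed testis and cilia markers 2 were measured, Foxj1 and Prm1, and Prm1 gave 0.42 in females and 0.11 in males with no call. The part of other cell types in the level of Tekt5l1 was not tested.

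Only 5 of 16 other listed genes of tektins and axonemal filaments were measured, 2 of which rose and 0 fell in each sex (limma, 0 lower at an unadjusted p under 0.05). Cfap20, a protein of axonemal microtubules and of cilia in general, rose in females (2.36 ± 0.14, adjusted p = 5.46e-06) and in males (2.18 ± 0.14, adjusted p = 8.58e-06). Tekt4, a tektin, gave 0.47 in females (adjusted p = 0.254) and rose in males (1.72, adjusted p = 0.00179). Efhc2, an EF-hand protein of ciliary microtubules, was at least 3.05-fold higher in females (adjusted p = 0.000839), a call lost with the slide as a block (adjusted p = 0.0599) and with normexp (0.0636). With normexp its female log2 difference was 0.50, smaller than this limit. In males Efhc2 gave 1.26 (adjusted p = 0.106).

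**Figure D2:**
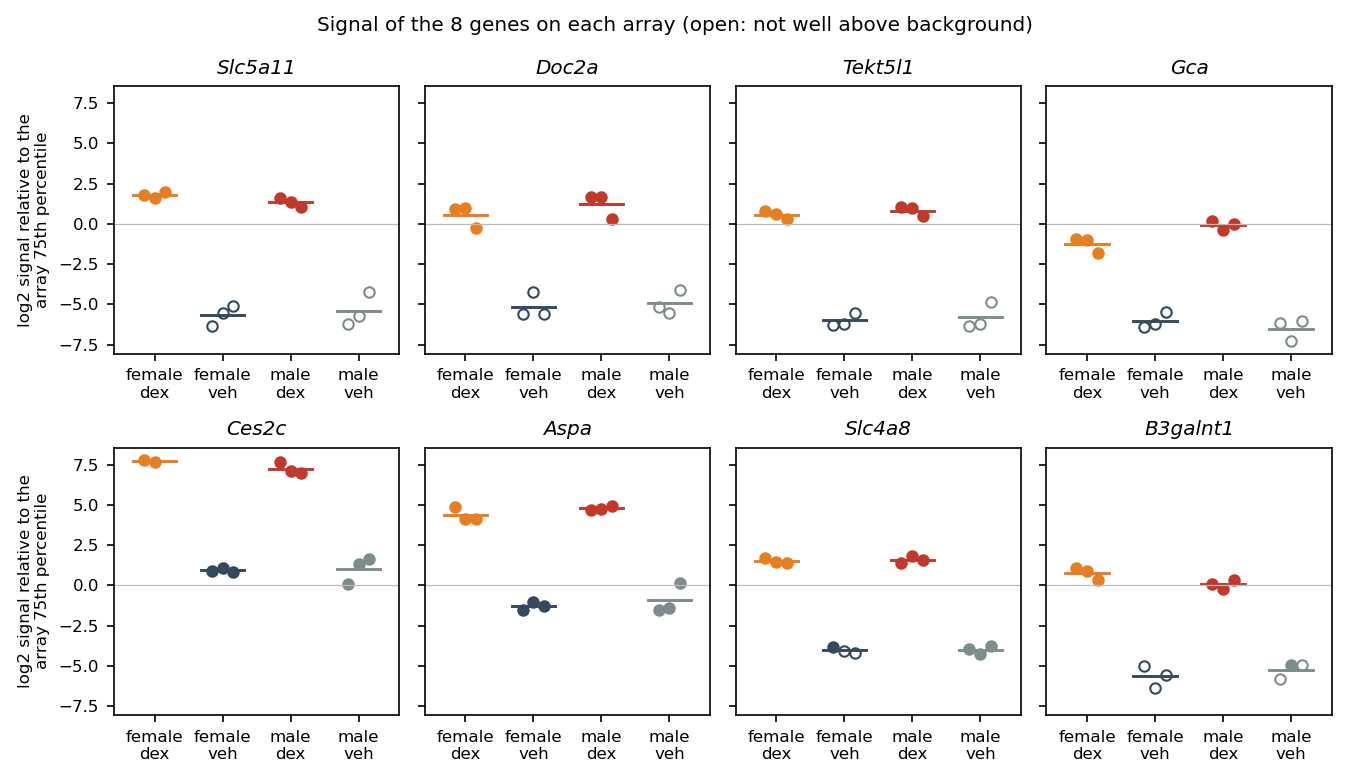
Signal of the 8 genes on each array, as log2 of the ratio to the array's 75th percentile, by group (dex, dexamethasone; veh, vehicle; lines, group means; open circles, not well above background). Dexamethasone arrays lie above all vehicle arrays for 8 of 8 genes, and for 5 of them most vehicle arrays are open.

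Of the 3 enzymes, Ces2c and Aspa were above background on every array, so their folds are not limits. Ces2c encodes a carboxylesterase, which hydrolyses esters, amides and ester drugs in the endoplasmic reticulum. Its signal was 22516% and 19943% on female dexamethasone arrays 1 and 3, against 190.2%, 216% and 176% on the female vehicle arrays. The spot on female dexamethasone array 2 was marked as an outlier by the scanner software and was dropped. In males it was 20259%, 13637% and 12679% on the male dexamethasone arrays, against 105%, 255% and 308% on the male vehicle arrays. The groups were fully apart in both sexes, and male vehicle array 1 was the lowest array. The log2 difference was 6.77 ± 0.41 in females and 6.23 ± 0.37 in males, with 2 arrays in the female dexamethasone group, which is a 109-fold difference in females and a 74.98-fold difference in males. The reference lists pseudogenes of Ces2c, and whether their transcripts bind this probe was not tested.

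Of 11 other measured carboxylesterases and related esterases, 1 rose and 0 fell in females, and 0 rose and 0 fell in males (limma), with medians of 0.08 in females and -0.40 in males. At an unadjusted p under 0.05, 2 were higher and 1 lower in females, and 1 was higher and 3 lower in males. The smallest and largest male differences were -1.13 and 0.45. The female call was Ces2a (1.25, adjusted p = 0.0241), which gave -0.57 in males and lost the female call without female vehicle array 3 or female dexamethasone array 2 or 3 (adjusted p up to 0.0750) or without the arrays of slide 5 (0.127).

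Aspa encodes aspartoacylase, which splits N-acetylaspartate into acetate and aspartate and whose loss in humans causes Canavan disease. Signals were 2876%, 1747% and 1747% on the female dexamethasone arrays, against 35.4%, 48.4% and 42.0% on the female vehicle arrays. Female dexamethasone array 1 stood above the other two. Male signals were 2582%, 2703% and 3116% on the male dexamethasone arrays, against 35.2%, 38.4% and 111% on the male vehicle arrays. Male vehicle array 3 was the highest vehicle array, well above the other two, and still far below dexamethasone. The log2 difference was 5.63 ± 0.39 in females and 5.71 ± 0.39 in males, a 49.6-fold difference in females and a 52.5-fold difference in males. Of 8 listed neuron and glia markers 6 were measured and 0 were called in either sex (limma, 4 in females and 0 in males at an unadjusted p under 0.05). Their summed signal was 62.8% to 73.4% of the 75th percentile on female dexamethasone arrays, against 85.7% to 156% on female vehicle arrays, and 71.5% to 171% on male dexamethasone arrays, against 83.2% to 113% on male vehicle arrays. The part of other cell types in the level of Aspa was not tested.

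Among 12 other measured genes of N-acetylaspartate and acylase metabolism, 2 rose and 2 fell in each sex, with medians of 0.18 in females and 0.34 in males. Slc13a5, the sodium-coupled citrate transporter of hepatocytes, rose in females (4.75 ± 0.50, adjusted p = 0.000134) and in males (4.44 ± 0.50, adjusted p = 0.000202). Got1, the cytosolic aspartate aminotransferase and a known glucocorticoid target, rose in females (3.12 ± 0.17, adjusted p = 6.22e-06) and in males (3.59 ± 0.19, adjusted p = 5.83e-06, with 2 usable dexamethasone arrays). Nat8, an N-acetyltransferase of liver and kidney, fell in both sexes (-1.97 in females, adjusted p = 0.000805, and -1.84 in males, adjusted p = 0.00127). The dicarboxylate transporter Slc13a3, which carries N-acetylaspartate, also fell (-1.22 in females, adjusted p = 0.00782, and -1.26 in males, adjusted p = 0.0128). The male call of Slc13a3 was lost without male vehicle array 2 or 3 (up to 0.0652) or without slide 5 (0.135), and the female call with the slide as a block (0.202).

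B3galnt1 encodes globoside synthase, which adds N-acetylgalactosamine to the glycolipid Gb3. The signal of its brighter probe was 217%, 189% and 129% on the female dexamethasone arrays, against 3.08%, 1.23% and 2.12% on the female vehicle arrays. In males it was 106%, 86.6% and 127% on the male dexamethasone arrays, against 1.80%, 3.28% and 3.26% on the male vehicle arrays. Of the vehicle arrays, male array 2 alone was above background. The dimmer probe, whose sequence is printed above, gave 100.4%, 105% and 41.8% on the female dexamethasone arrays, against 1.18%, 1.27% and 2.08% on the female vehicle arrays. In males the dimmer probe gave 57.1%, 32.8% and 31.0% on the male dexamethasone arrays, against 1.15%, 0.644% and 1.41% on the male vehicle arrays. On both probes the dexamethasone arrays lay above all vehicle arrays. The log2 difference of the brighter probe was 6.44 ± 0.36 in females and 5.29 ± 0.36 in males. The signal was at least 30.2-fold higher in females. In males the vehicle mean rests on 1 array above background and 2 below it, so no fold is given. The dimmer probe gave 5.70 in females and 5.25 in males, at least 13.2-fold higher in females and at least 9.68-fold higher in males.

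Of 12 other measured genes of globoside and related glycolipid synthesis, 3 rose and 2 fell in each sex, with medians of -0.23 in females and -0.35 in males. B3galt6, which builds the linker of proteoglycans, rose in females (1.79 ± 0.21, adjusted p = 0.000221) and in males (2.12 ± 0.21, adjusted p = 8.36e-05). B4galnt1, which makes complex gangliosides, rose in both sexes (0.90 in females, adjusted p = 0.00750, and 1.80 in males, adjusted p = 0.000157), with the female call lost with the slide as a block (0.269). B4galt6, a lactosylceramide synthase, fell in both sexes (-1.37 in females, adjusted p = 0.0196, and -1.42 in males, adjusted p = 0.0183). Its male call was lost without male vehicle array 1 or 2 or male dexamethasone array 2 or 3 (up to 0.0695), and its female call without female vehicle array 1 (0.0626). B3galt1, a galactosyltransferase, was at least 2.69-fold lower in males (adjusted p = 0.00883), a call lost with normexp (0.205) and without slide 5 (0.0691). With normexp its male log2 difference was -0.41, smaller in size than this limit. Its female call (-1.99, adjusted p = 0.0376) was lost without any single female vehicle array, female dexamethasone array 2 or male vehicle array 2 (up to 0.105), and with the slide as a block (0.578).

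**Figure D3:**
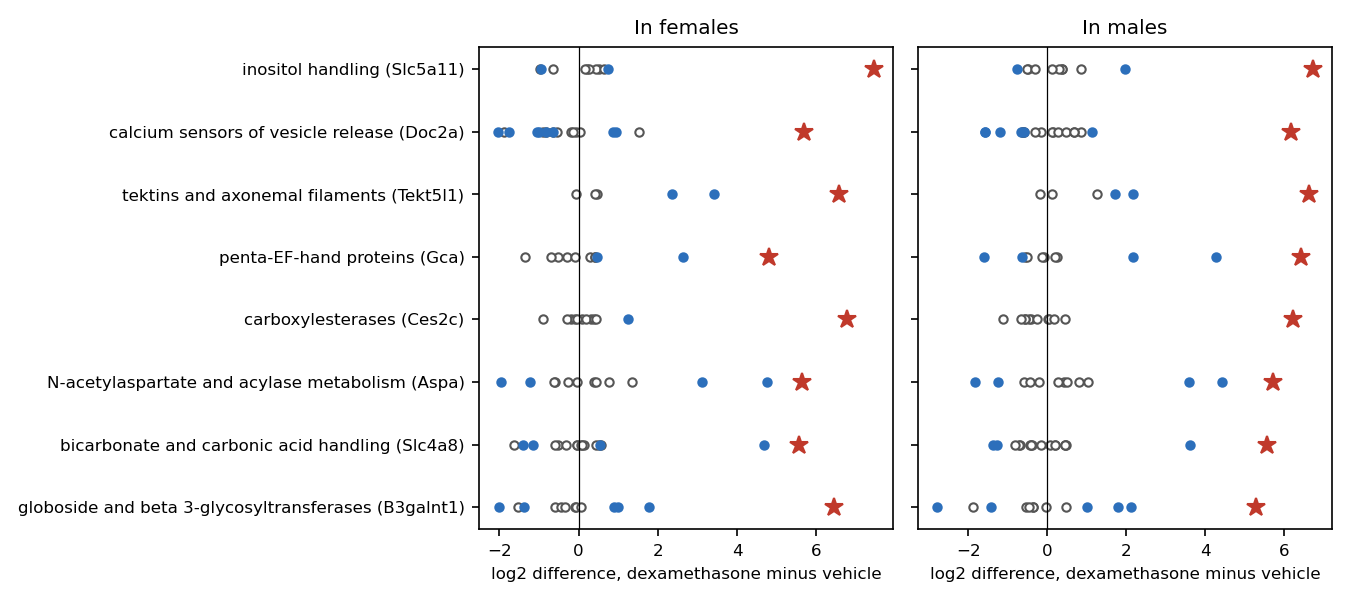
Log2 difference between dexamethasone and vehicle for the other measured genes of each list (blue, called at an adjusted p under 0.05; open, not called) and for the chosen gene of that list (red star), in females (left) and in males (right). Every star lies to the right of all other genes of its list in both panels, which largely follows from choosing these genes for their large differences.

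No difference between the sexes passed the test for any of the 8 genes. Averaged over treatments, a contrast that is independent of the difference after dexamethasone in either sex, 0 of 8 were called (limma, lowest adjusted p = 0.633, 0 of 8 at an unadjusted p under 0.05), against 3.69% of all genes. The largest such difference, female minus male, was -0.44 (95% interval -1.32 to 0.45) for Doc2a, and the narrowest interval was that of Slc4a8, -0.06 (95% interval -0.36 to 0.24). Intervals for the others reached beyond 1.5-fold in at least 1 direction, so with 3 arrays a group differences of that size are not excluded for them. The next contrasts share arrays with the difference in 1 sex, and the 8 genes are among the first 10 genes with a symbol in males. These contrasts are therefore not fully independent of the choice.

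The female minus male effect of dexamethasone, an interaction, was called for 0 of 8 genes (limma, lowest adjusted p = 0.382, 2 of 8 at an unadjusted p under 0.05), against 0.0288% of all genes, 7 in number. Gca had a measured interaction of -1.63 (95% interval -2.83 to -0.43), with an adjusted p of 0.382. Its vehicle values were below background on 6 of 6 arrays, so both of its differences after dexamethasone are limits and the size of the interaction is not calibrated, which holds for Slc5a11, Doc2a and Tekt5l1 too. B3galnt1, with 1 of 6 vehicle arrays above background, had 1.15 (95% interval 0.02 to 2.28) in the other direction, with an adjusted p of 0.494. Tekt5l1 (-0.05), Aspa (-0.08) and Slc4a8 (-0.03) lay closest to 0, and the interval of Slc4a8 ran from -0.63 to 0.56. Of the female vehicle arrays of Slc4a8 only 1 was above background, so its female difference is not fully calibrated either. After vehicle 0 of 8 were called between females and males (lowest adjusted p = 0.799, 0 of 8 unadjusted), against 1.7% of all genes. Slc5a11, Doc2a, Tekt5l1 and Gca were above background on 0 of 6 vehicle arrays and B3galnt1 on 1 of 6, so for these 5 genes the vehicle contrast sets background against background and says nothing of their levels, and their averages over treatments include such values. After dexamethasone 0 of 8 were called (lowest adjusted p = 0.168, 1 of 8 unadjusted), against 2.31% of all genes, and the lowest p was again that of Gca, at -1.17 (95% interval -2.02 to -0.32). With the slide as a random block, the scan day as a block or the authors' value table, that difference of Gca passed (adjusted p = 0.0434, 0.0419 and 0.0376).

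**Figure D4:**
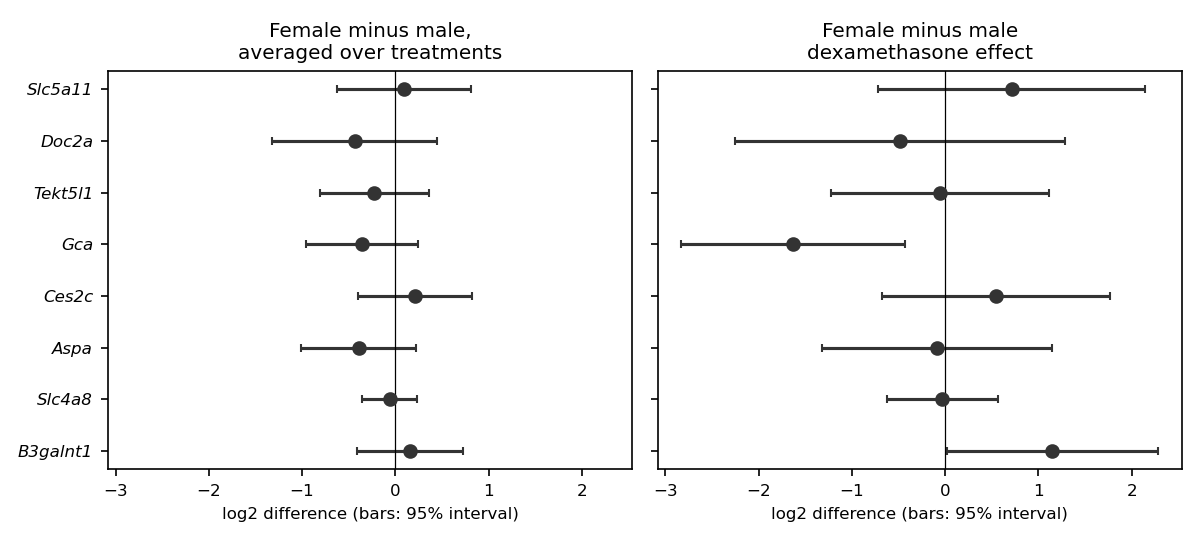
Female minus male difference of the 8 genes averaged over treatments (left) and female minus male difference of the dexamethasone effect (right), on the log2 scale with 95% intervals from the model. The intervals of Gca and B3galnt1 on the right exclude 0 before adjustment over all genes, and all others include it.

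The 8 genes followed each other across the 12 arrays. The Pearson correlation of normalized log2 signals was 0.950 to 0.995 over the 28 pairs (median 0.983), which the treatment sets by itself since all 8 were chosen for it. After the group means were subtracted, the correlation of the deviations ranged from -0.22 to 0.89 (median 0.40), over 12 arrays that share slides. Male vehicle array 3, on slide 5, lay above its group mean for 8 of 8 genes, by 0.70 on average, and female dexamethasone array 1 did so for 8 of 8, by 0.25. Female dexamethasone array 3, also on slide 5, lay above its mean for 1 of 8. Within slide 5 the differences after dexamethasone ran from 3.68 to 7.08 in females and from 4.39 to 6.00 in males. Without its 4 arrays they ran from 5.36 to 7.64 in females and from 5.30 to 7.45 in males. Within slide 1 the male differences ran from 5.01 to 7.48.

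Genes outside the 8 whose signal followed each most closely over the arrays were picked by correlation alone, and these correlations include the shared difference after dexamethasone. After the group means were subtracted, the correlations of the pairs named here ran from 0.20 (Slc4a8 and Mif4gd) to 0.93 (Gca and Rorb). Gca was followed by Rorb (r = 0.993), whose difference after dexamethasone was 3.28 in females and 5.19 in males. Slc4a8 was followed by Mif4gd, a translation factor-like protein, and Tekt5l1 and Slc4a8 shared Map3k5, the stress kinase ASK1 (r = 0.993 for each). B3galnt1 and Ces2c shared Tdo2, the tryptophan dioxygenase that glucocorticoids are known to induce (r = 0.992 and 0.990). The gene most like Ces2c was Cdc37l1 (r = 0.990 over 11 arrays). Slc5a11 was followed by Por, the electron donor of microsomal cytochromes P450, and by Cdkn1a (r = 0.989 for each).

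The nearest measured gene with a symbol on either side of each of the 8 genes in the RefSeq order was read as well, with 0 to 8 other genes between, 15 genes in all, a set chosen by position after the values of the 8 were known. Of these 6 rose and 2 fell in females, and 5 rose and 0 fell in males (limma, 1 lower at an unadjusted p under 0.05), against 11.7% of all genes called higher in females and 9.34% in males. Ifih1, which encodes the viral RNA sensor MDA5, is the next gene to Gca and lies head to head with it, 21922 bases between the starts. It rose in females (4.06 ± 0.21, adjusted p = 3.74e-06) and in males (4.11 ± 0.21, adjusted p = 3.25e-06). Cdc37l1, an Hsp90 co-chaperone that shares its start region with Tekt5l1, rose in females (3.05 ± 0.15, adjusted p = 3.74e-06) and in males (2.86 ± 0.15, adjusted p = 3.35e-06). Both genes beside B3galnt1 rose as well: Ppm1l, a protein phosphatase, by 2.91 in females (adjusted p = 0.000773) and 1.85 in males (adjusted p = 0.0102), and Nmd3, an export factor of the large ribosomal subunit, by 1.84 in females (adjusted p = 0.000358) and 1.94 in males (adjusted p = 0.000272).

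Aldoa, the glycolytic aldolase near Doc2a, rose by 1.12 in females (adjusted p = 0.00177) and 0.97 in males (adjusted p = 0.00415). On its other side Ino80e, of the INO80 chromatin remodeller, gave 0.16 in females and 0.16 in males with no call. Neither neighbour of Slc5a11 passed, with Rbbp6 at 0.25 in females and 0.11 in males, and Arhgap17 at -0.41 in females and -0.65 in males. Grk5, the only measured neighbour of Ces2c, gave 0.09 in females and -0.02 in males, and neither neighbour of Slc4a8 or Aspa rose. The remaining female calls were Plpp6 beside Tekt5l1 (0.59), Acvrl1 beside Slc4a8 (-0.96) and Or1e1c beside Aspa (-1.66, below background on all female dexamethasone and female vehicle arrays). Plpp6 lost the call without any single female vehicle array, female dexamethasone array 1 or 3, male vehicle array 3 or male dexamethasone array 1 or 2 (adjusted p up to 0.111). Acvrl1 lost it without female vehicle array 1 (0.0528), and Or1e1c without female vehicle array 2 or female dexamethasone array 1 or 2 (up to 0.0617). With the slide as a block Plpp6 and Or1e1c lost it too (0.0842 and 0.117), and with median scaling Acvrl1 (0.0773).

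**Figure D5:**
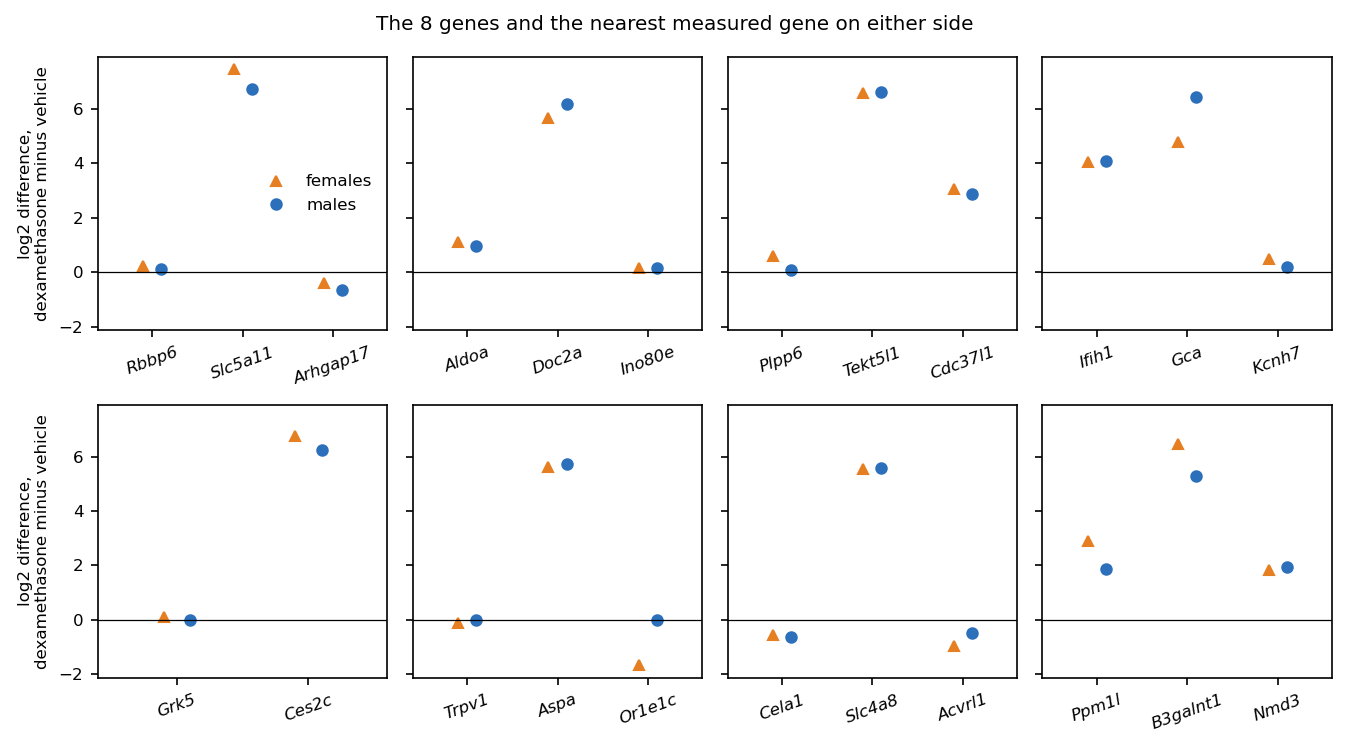
Log2 difference between dexamethasone and vehicle in females (triangles) and in males (circles) for each of the 8 genes and the nearest measured gene with a symbol on either side, in the order of the reference. Ifih1 (4.06 in females and 4.11 in males), Cdc37l1 (3.05 in females and 2.86 in males), Ppm1l and Nmd3 lie above 1.5 in both sexes, and the other neighbours lie below 1.2.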

How the data were processed

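Hepatic RNA was read on 12 single-colour arrays. The authors' deposited scanner files hold Cy3 intensities from Agilent Feature Extraction 9.1, per the submitters' processing notes, background-subtracted by that software, per the file headers. The authors' deposited value table of the same arrays holds log10 signals, with its normalization not given in the sources used here, and served as an alternative. For the values given here, log2 of the processed signal minus the 75th percentile of the array was taken, 211 outlier spots were dropped, and replicate spots were averaged by probe. Probes had to be well above background on 3 or more of the 12 arrays and usable on 2 or more arrays of every group, and the brightest probe stood for a gene, which left 24295 genes. Of 41012 probes, 20270 were matched to RefSeq genes by accession or name and 20742 keep the file's name. Missing values were 116 of 291540.

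Differences were tested with limma 3.58.1 in R 4.3.3 with 1 mean per group in the model, 4 in all (8 residual and 2.39 prior degrees of freedom), with Benjamini-Hochberg adjustment over all 24295 genes at 0.05. The code was tested on simulated data. The alternatives were normexp background correction (offset 50), quantile and median scaling, the authors' table, other filters, the mean over probes, the slide and the replicate number as blocks, and each array left out. Replicate numbers were not treated as pairing arrays, since deviations from the group means correlated between -0.0026 and 0.59 within a number. The 8 genes, the gene lists and the markers were chosen with earlier results of these data known. The genes named besides the 8 are 5 known glucocorticoid targets, up to 4 called genes per list with the largest differences, the genes next to either end of the range of the 8, the 2 genes most correlated with each, and markers of a list that moved with one. One gene picked by correlation is not reported here. The genomic neighbours and 2 further alternatives (the scan day as a block, and leaving out slide 5) were chosen after seeing the data. The number of arrays limits the precision.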

Additional observations from a re-analysis of the deposited data

Results flagged for a closer look

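Capn8, a calpain named above among the relatives of Gca, differed between the sexes in its response to dexamethasone (female minus male effect -3.85 ± 0.47 SE on the log2 scale, limma interaction adjusted p = 0.0360). Its signal was 2.31%, 2.91% and 1.13% of the 75th percentile on the female dexamethasone arrays, against 1.36%, 1.19% and 1.94% on the female vehicle arrays. In males it was 22.2%, 34.6% and 24.8% on the dexamethasone arrays, against 1.37%, 1.43% and 1.32% on the vehicle arrays. All female arrays and all male vehicle arrays were below background, so the size of the difference is a measured value and not a calibrated one. The call was lost under 19 of 23 alternatives, and in 11 of the 12 fits that left out 1 array (adjusted p 0.0311 to 0.137 over those 12 fits). Groups of 3 arrays were too small to search for arrays that stand apart.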

How the results depend on the processing

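No difference of the 8 genes after dexamethasone changed sign under any alternative. With normexp background correction the differences shrank to between 1.34 and 6.54 in females and between 2.03 and 5.97 in males, where the means include arrays below background. For Slc5a11, Doc2a, Tekt5l1 and Gca, and for B3galnt1 in females, they were then smaller than the lower limits given above. Between the sexes, 0 of 8 genes were called under every alternative in 3 of the 4 contrasts. After dexamethasone, 1 of 8 (Gca) was called with the authors' value table, with the slide as a random block (consensus correlation 0.512) and with the scan day as a block, and 0 in every fit that left out 1 array. Of 74 dexamethasone calls of the named list genes, known targets, markers and genomic neighbours, counted per sex, 46 held under every alternative and 59 in every fit that left out 1 array, and none turned direction. The count of genes called over all genes moved more. After dexamethasone in females it was 5918, with 3085 with the slide as a block and 3741 to 6068 without 1 array, the lowest without female dexamethasone array 2. After dexamethasone in males it was 4895, with 7748 with the slide as a random block and 3679 to 5192 without 1 array. The count for the sexes averaged over treatments was 896, with 1479 with the random block. The interaction had 7 calls, against 28 with normexp, 0 without a filter on dim probes, 4 with the scan day as a block, 0 without slide 5 and 0 to 5 without 1 array. Between the sexes after vehicle the count was 414, against 251 with the slide as a block, 652 with it as a random block, 698 with the scan day as a block, 262 without slide 5 and 260 to 400 without 1 array, the lowest without female vehicle array 1. After dexamethasone it was 560, against 917 with the random block, 869 without slide 5 and 295 to 626 without 1 array, the lowest without female dexamethasone array 1 or 2 or male dexamethasone array 1 or 2. In the replicate block the arrays of number 3 also share slide 5 and a scan day. With this block the counts were 7729 after dexamethasone in females, 6334 after dexamethasone in males and 848 between the sexes after dexamethasone. No call of the 8 genes was made under it. Causes of these shifts were not tested. The scan day and the removal of slide 5 were chosen after seeing the data. Vehicle signals below background limit 5 of the 8 genes to lower bounds in at least 1 sex.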
